A study of Mus musculus with 6 samples.

Results

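Heparan sulfate and chondroitin sulfate proteoglycans, hyaluronan and the proteins that hold them together were followed in primary hippocampal cells after knockdown of Diras2, a small GTPase of the Ras family found in brain. The 43 genes considered encode syndecans, glypicans, lecticans, tenascins, link proteins, hyaluronan synthases, Cd44, other proteoglycans and the enzymes that build and sulfate the sugar chains. A gene was measured through the probe set whose annotation named that gene alone, the brightest where there were several. Such a probe set was found for 42 of the 43 genes, out of 22180 genes tested in all, and Ndst1 was not analysed here.

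The cells came from hippocampi of mouse embryos at day 18 of gestation. AAV1/2, a viral vector of the adeno-associated type, was added 7 days after seeding. RNA was taken 7 days after infection. In 3 samples the vector carried a Diras2 knockdown construct, and in 3 control samples, cultured and infected alike, a scrambled sequence. Mouse strain, sex and the promoter of the construct are not given in the sources used here, and as the series has a single construct, the loss of Diras2 and any other action of that construct cannot be told apart. Each sample was read on 1 Affymetrix array, so the number of arrays limits the precision. Values are log2 levels from RMA, a procedure that corrects background, puts all arrays on a common distribution and summarises the probes of a set, and 1 unit is a doubling. Replicates are labelled as biological, but no cultures or litters are named, and p-values therefore reflect only how these samples varied, some of it possibly for technical reasons.

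Diras2 stood at 7.17, 6.23 and 6.08 in the knockdown arrays and at 10.17, 10.17 and 9.76 in the controls, lower in every knockdown array. It fell by 3.54 (SE 0.27) on the log2 scale (adjusted p 0.00063 by limma). The related gene Diras1 was at 5.76, 5.99 and 6.08 in the knockdown and at 7.14, 7.31 and 7.42 in the control. Diras1 was thus 2.54-fold lower (adjusted p 0.00105 by limma), and the reason was not tested. Array medians ran from 4.03 to 4.11. Neuronal markers were bright (median level 10.88 over 9 genes), astrocyte markers were present (7.67 over 10) and endothelial markers were dim (3.72 over 6) against a median of 5.06 over all genes. Of 5 measured markers of dividing cells 4 rose, and their summed log2 level was 7.41 to 8.26 in the knockdown and 6.50 to 6.66 in the control. Of the 9 neuronal markers Snap25, a synaptic vesicle fusion protein, fell by 0.51 (adjusted p 0.0471 by limma) and 8 did not pass. Of the 9, 3 lay above 0 and 6 below. An unadjusted p under 0.05 by limma was reached by 4 of them, and by 4637 of all 22180 genes tested. Among these 4, Snap25, Syt1 and Nefm were lower, while Tubb3 was higher in every knockdown array, by 0.39. The summed log2 level of the 9 was 14 to 14.32 in the knockdown and 14.21 to 14.60 in the control. Snap25, the brightest of them, weighs most in this sum. The part of either set of markers in the differences that follow was not tested. RNA integrity numbers were 9 to 9.3 in the knockdown and 8.8 to 9.2 in the control.

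Proteoglycans are proteins that carry long sulfated sugar chains. Syndecans span the membrane and glypicans are tied to it by a lipid anchor, and through heparan sulfate both hold growth factors at the cell surface. The brain has little fibrous collagen matrix. Its space between cells is filled by hyaluronan, to which lecticans such as neurocan bind with the help of link proteins, while tenascins cross-link the lecticans. This meshwork condenses into perineuronal nets around some neurons as they mature.

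Of the 42 measured genes, 3 rose and 7 fell at an adjusted p under 0.05 by limma, together 23.8%, where 7.80% of all genes tested passed. Those that rose made up 7.14% of the genes (4.17% of all genes tested) and those that fell 16.7% (3.64% of all genes tested). Only 7 of the 42 lay below the median level of all genes. Among the genes at or above that median, 7.84% rose and 6.72% fell, so the share that rose was near this background and the share that fell was above it. The genes were chosen with earlier results of these data known, so these shares describe the list and are not a test of it. The median log2 difference was -0.14, against 0.00 over all genes tested, with 13 genes above 0 and 29 below. The 3 knockdown and 3 control values did not overlap for 17 genes (40.5%, against 25.5% of all genes tested), 5 of them higher and 12 lower (11.9% and 28.6%, against 13.4% and 12.1%).

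**Figure D1:**
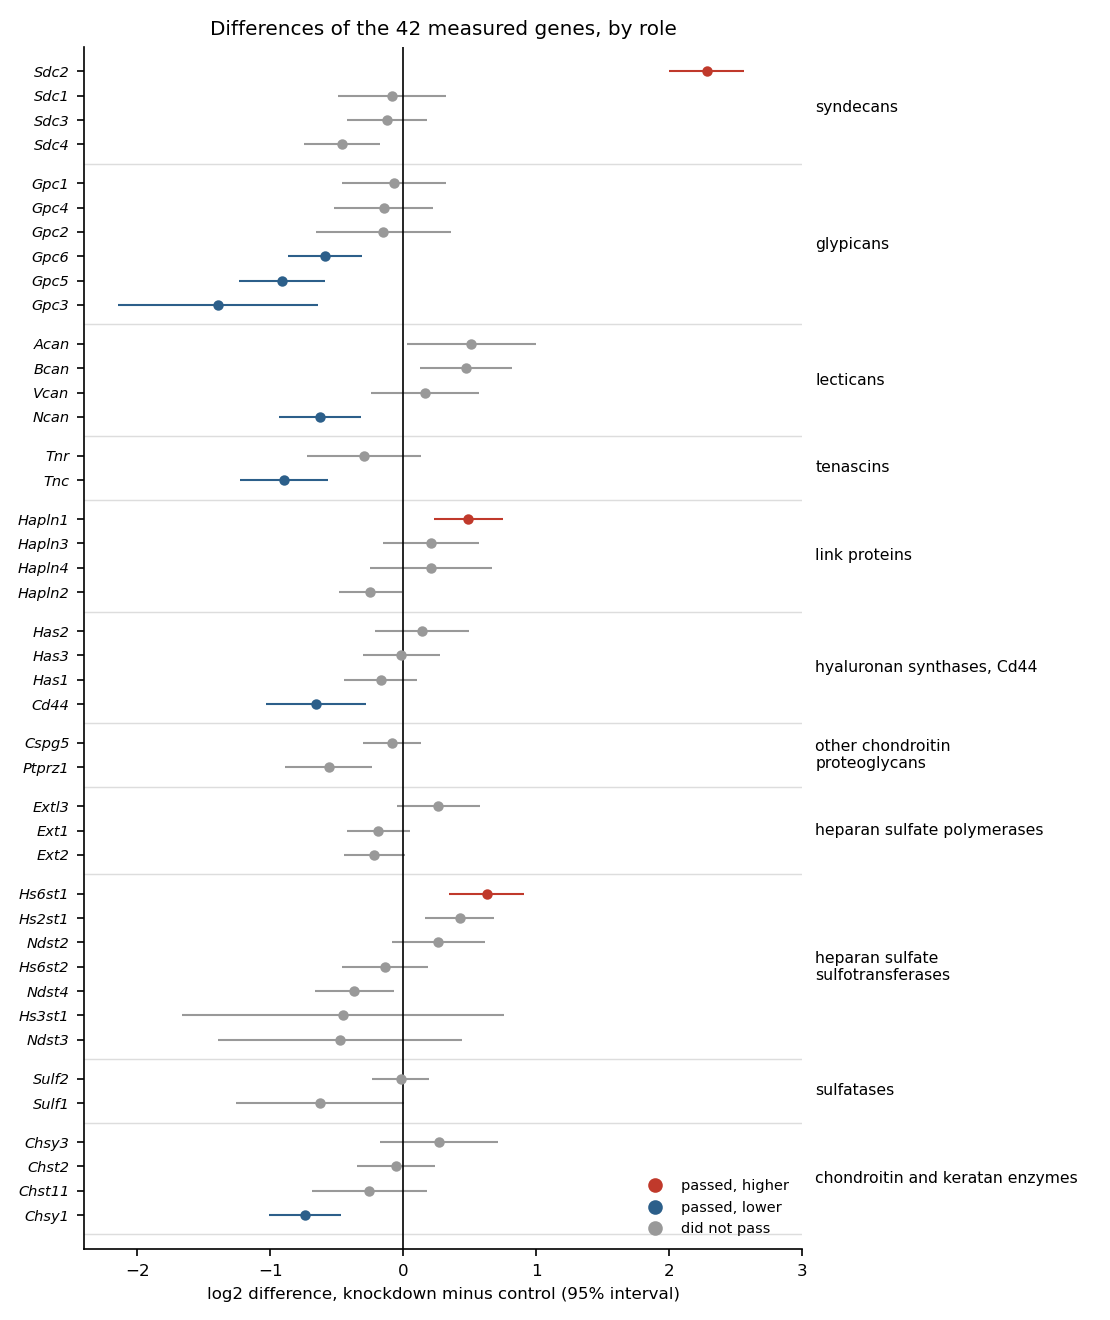
Log2 difference of knockdown minus control (horizontal axis) for each of the 42 measured genes, grouped by role. Points are differences of the group means of 3 arrays, bars are 95% intervals from limma, and colours mark the 3 genes that rose and the 7 that fell. Sdc2 lies at 2.28, far from the rest. All 6 glypicans lie below 0 with the 6 arrays, though Gpc1 and Gpc2 do not without control replicate 1.

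RefSeq upstream sequence of assembly GRCm38.p6 was at hand for 30 of the 42 genes, and for 8 of the 10 that passed. The 150 bases before the start are shown for Gpc3 and Gpc5, glypicans that fell, for Ncan (neurocan), which fell as well, and for Hs6st1 and Hapln1, which rose, so that genes that moved in opposite directions can be set side by side. Capitals mark the letters of 6 motifs searched on both strands, which are spelled out after the sequences.
Gpc3, chrX:52613975-52614124, - strand: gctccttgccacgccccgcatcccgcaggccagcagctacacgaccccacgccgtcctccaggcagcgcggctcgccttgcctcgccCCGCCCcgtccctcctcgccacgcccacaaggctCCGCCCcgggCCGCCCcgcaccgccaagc
Gpc5, chr14:115092065-115092214, + strand: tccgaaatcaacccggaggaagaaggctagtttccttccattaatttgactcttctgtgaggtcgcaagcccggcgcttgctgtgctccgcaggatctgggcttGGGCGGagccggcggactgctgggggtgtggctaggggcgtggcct
Ncan, chr8:70120845-70120994, - strand: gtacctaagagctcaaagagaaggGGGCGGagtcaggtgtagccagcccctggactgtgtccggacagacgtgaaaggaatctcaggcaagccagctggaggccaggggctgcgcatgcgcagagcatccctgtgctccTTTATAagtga
Hs6st1, chr1:36068250-36068399, + strand: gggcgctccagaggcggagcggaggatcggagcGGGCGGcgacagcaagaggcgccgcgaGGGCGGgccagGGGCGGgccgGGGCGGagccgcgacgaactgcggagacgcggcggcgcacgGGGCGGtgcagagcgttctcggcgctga
Hapln1, chr13:89540486-89540635, + strand: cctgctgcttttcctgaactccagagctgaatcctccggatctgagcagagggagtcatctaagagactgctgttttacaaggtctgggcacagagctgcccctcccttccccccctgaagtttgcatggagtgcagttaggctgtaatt
The window of Hs6st1 holds 5 GC boxes and that of Gpc3 holds 3, so this motif is found at a gene that rose and at a gene that fell. Their bases are 79.3% and 78.0% G or C, against a median of 54.0% over all windows. Gpc5 and Ncan have 1 GC box each, and Ncan also has the letters of a TATA box, on the opposite strand, close to its start. Hapln1 holds none of the 6 motifs. The GC box was searched as GGGCGG and occurs in 28.6% of all 32851 windows of this length in the table. The TATA box was searched as TATAAA and occurs in 7.57% of them. CCAAT, the box of that name, is found in 24.5% of the windows. For the E box the letters were CACGTG, found in 4.3%. The AP-1 site was spelled TGANTCA and is found in 4.24%, and the CRE was spelled TGACGTCA and is found in 1.36%. No motif of the set contains another. These matches describe letters and are not binding sites shown by these data.

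Among the syndecans, Sdc2 rose steeply and the other 3 did not pass. Sdc2, a syndecan that takes part in dendritic spine formation, was at 8.88, 8.77 and 8.87 in the knockdown and at 6.39, 6.50 and 6.78 in the control. The knockdown values lay close together (SD 0.06, n = 3) and far above every control value. The difference was 2.28 (SE 0.12, 95% interval 2.00 to 2.56), a 4.87-fold rise, with an adjusted p by limma of 0.000213 that stayed at or below 0.00383 when any array was left out.

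Sdc4, a syndecan of focal adhesions, stood at 7.25, 7.09 and 7.19 in the knockdown and at 7.48, 7.57 and 7.86 in the control. The groups did not overlap, and the log2 difference of -0.46 had an adjusted p of 0.0634 by limma. It passed with the replicate number as a block (0.0495), with the dim-gene filters (0.0368 and 0.0373) and with array weights (0.0318). Sdc3, the main neuronal syndecan and a receptor for pleiotrophin, was bright in both groups, at 11.19 ± 0.11 and 11.31 ± 0.22 (SD, n = 3). Its difference of -0.12 had an interval from -0.43 to 0.18. Sdc1, best known from epithelia, had a difference of -0.08 with an interval from -0.49 to 0.32. An increase of the size seen in Sdc2 thus lies outside the intervals of the other 3 syndecans.

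Glypicans were lower as far as they moved: Gpc3, Gpc5 and Gpc6 fell, and Gpc1, Gpc2 and Gpc4 did not pass the test. Gpc5 stood at 5.56, 5.18 and 5.28 in the knockdown and at 6.23, 6.45 and 6.08 in the control. The gap between the groups exceeded the spread within either, and the gene fell by 0.91 (SE 0.14) on the log2 scale (adjusted p 0.00737 by limma, at most 0.0407 with any array left out). Gpc6, which astrocytes release and which promotes excitatory synapses, was at 5.39, 5.60 and 5.44 in the knockdown against 5.94, 6.26 and 5.99. It fell by 0.59 (SE 0.12), with an adjusted p of 0.0243 by limma, and its call was lost without knockdown replicate 1, 2 or 3 or control replicate 2 (0.0561 to 0.0918) and with the RNA integrity number in the model (0.0832).

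Gpc3, a glypican that restrains growth in the embryo, showed the largest fall of the 42 genes, with an uneven control group. Its knockdown values were 6.04, 5.71 and 5.93 and its control values 7.95, 7.45 and 6.46. Control replicate 3 lay nearest to the knockdown arrays, although the groups did not overlap. Gpc3 fell by 1.39 (SE 0.33), which is 2.63-fold (adjusted p 0.0398 by limma). Without control replicate 3 it was -1.81 with an adjusted p of 0.00303, and the call was lost without any other single array (0.0606 to 0.148). The 7 markers of fibroblasts and pericytes had a summed log2 level of 10.44, 10.24 and 9.40 in the controls and of 9.92, 9.89 and 9.41 in the knockdown. This sum is carried by Dcn (decorin), the brightest of them, at 9.86, 9.57 and 7.27 in the controls and 9.37, 9.29 and 8.19 in the knockdown. The mean log2 level of the 7 markers, in which each counts alike, was 6.25, 6.30 and 6.0 in the controls and 5.91, 5.95 and 6.14 in the knockdown, and Col1a1, Col1a2 and Rgs5 were highest of the controls in replicate 3. Of the 7 markers Rgs5 fell by 1.40 (adjusted p 0.00258 by limma) and 6 did not pass. Lum lay below the median level of all genes, and the part of these markers in the difference of Gpc3 was not tested. In a mixed culture, fewer cells of a type and less RNA per cell cannot be told apart.

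The 3 glypicans that did not pass had differences close to 0. Gpc4, which like Gpc6 is released by astrocytes, had -0.15 (interval -0.52 to 0.23). Gpc1, a glypican of neurons, had -0.07 (-0.46 to 0.32), and Gpc2, known from growing axons, had -0.15 (-0.66 to 0.36). Without control replicate 1 these became 0.077 and 0.11, and Gpc1 was 0.0083 without knockdown replicate 3. In the RefSeq table of GRCm38.p6, Gpc5 and Gpc6 are neighbours on chromosome 14 with no protein-coding gene starting between them, and both fell. Gpc3 and Gpc4 are neighbours on chromosome X, and there only Gpc3 passed the test.

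**Figure D2:**
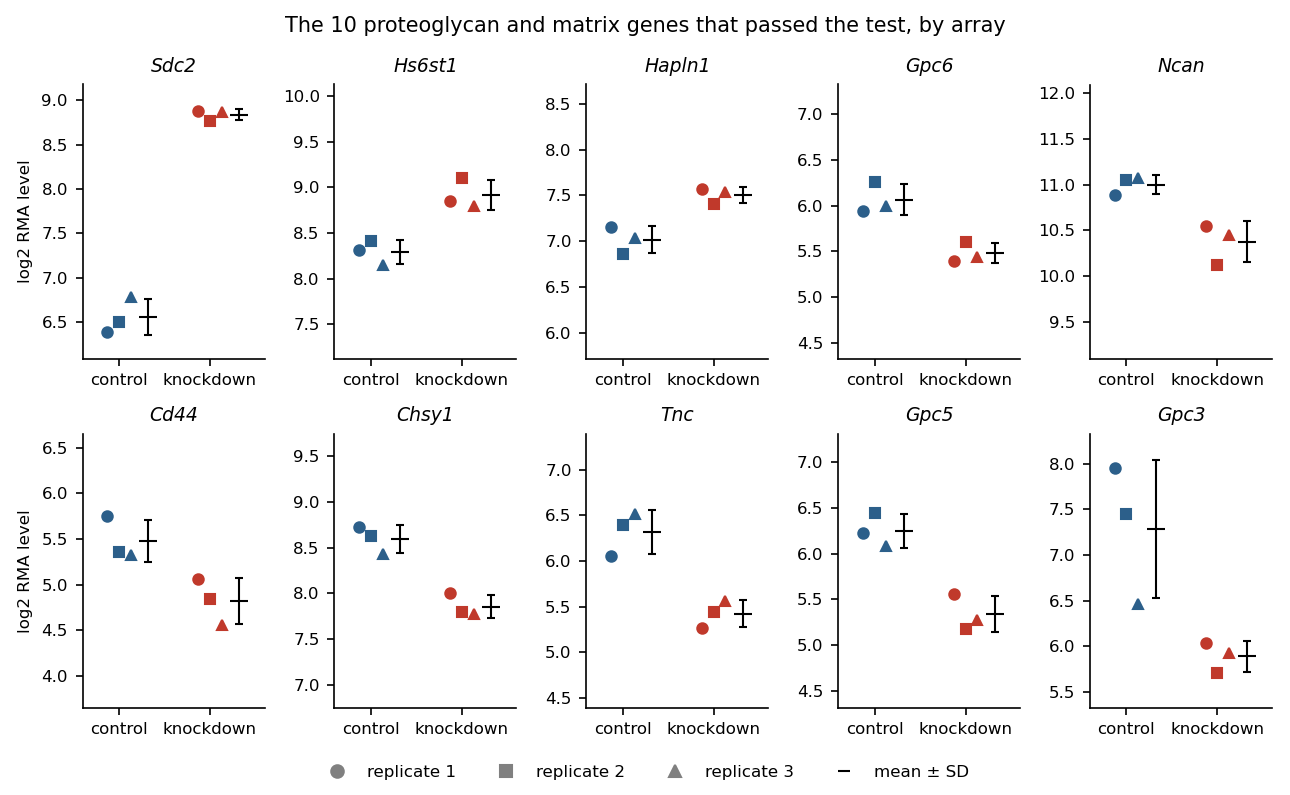
Log2 RMA level (vertical axis, each panel with a range of its own) of the 10 genes that passed, in the 3 control arrays (blue) and the 3 knockdown arrays (red). Marker shapes give the replicate number and black bars the mean ± SD, n = 3. The groups are apart in every panel, widest for Sdc2, and the control values of Gpc3 spread from 6.46 to 7.95.

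Of the 4 lecticans, the hyaluronan-binding chondroitin sulfate proteoglycans, only Ncan passed, and it fell. Ncan (neurocan), a lectican of the young brain, stood at 10.55, 10.12 and 10.45 in the knockdown and at 10.88, 11.05 and 11.07 in the control. All control values were above all knockdown values, with a log2 difference of -0.63 (SE 0.13) and an adjusted p of 0.0278 by limma. Its second, dimmer probe set showed -0.91, also past the threshold when all probe sets were adjusted together (0.0201). The call was lost without knockdown replicate 2 or 3 or control replicate 2 or 3 (0.0727 to 0.113) and with the RNA integrity number in the model (0.109).

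Bcan (brevican), the lectican of the mature brain, was at 7.35, 7.44 and 7.47 in the knockdown against 7.14, 7.09 and 6.61. These groups were apart in the direction opposite to Ncan, but the difference of 0.47 (interval 0.13 to 0.82) did not pass after adjustment (0.107 by limma). Acan (aggrecan), the core of perineuronal nets, was at 6.31, 6.52 and 6.69 in the knockdown and at 5.60, 5.92 and 6.46 in the control, with overlap. Within each replicate number its knockdown value was the higher. Its log2 difference of 0.51 had an adjusted p of 0.213 by limma, of 0.0419 with the replicate number as a block and of 0.036 without control replicate 3. Vcan (versican), which lines migration routes of neural cells, had a difference of 0.17 (-0.24 to 0.57).

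Each lectican gene lies beside a gene for a link protein, the small partner that locks a lectican onto hyaluronan. Hapln1, the neighbour of Vcan, rose. It stood at 7.57, 7.41 and 7.54 in the knockdown and at 7.16, 6.86 and 7.03 in the control, with no overlap. The rise was 0.49 (SE 0.11), which is 1.40-fold (adjusted p 0.0364 by limma), and the call was lost without every array in turn except control replicate 1 (0.0777 to 0.139) and with the RNA integrity number in the model (0.131). Hapln2, Hapln3 and Hapln4 did not pass, lay below the median level of all genes, and had differences of -0.25, 0.21 and 0.21 beside 0.47 for Bcan, 0.51 for Acan and -0.63 for Ncan. The neighbours Ncan and Hapln4, and Bcan and Hapln2, thus had differences of opposite sign, while both members of the other lectican pairs lay above 0.

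**Figure D3:**
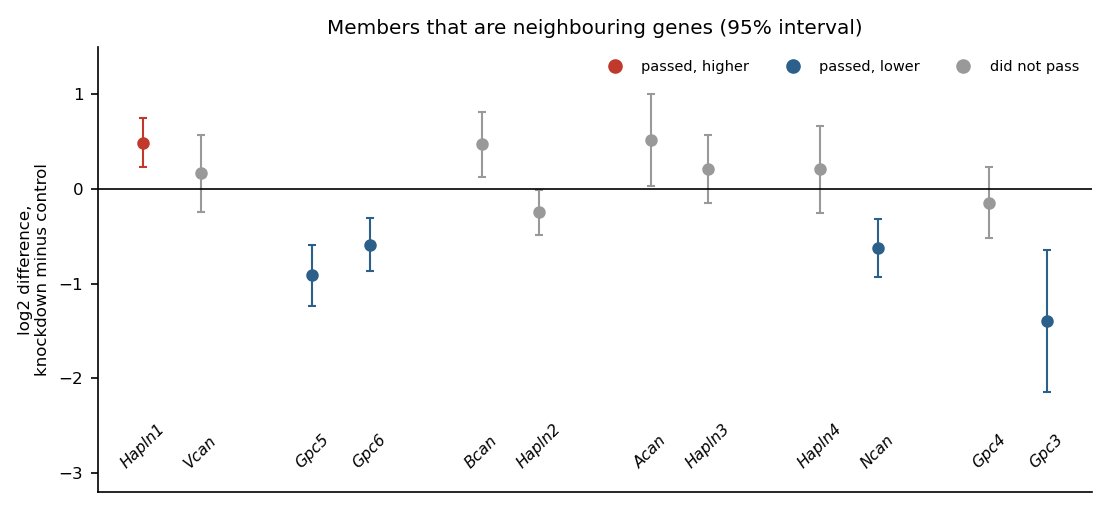
Log2 difference of knockdown minus control (vertical axis) for the 6 pairs of genes that are next to each other in RefSeq GRCm38.p6. Points are differences of group means over 3 arrays each, bars are 95% intervals from limma, and colour marks genes that passed. Gpc5 and Gpc6 both fell, while in the 4 pairs of a lectican and a link protein at most 1 gene passed.

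Tnc (tenascin C), a matrix protein of the developing brain and of astrocytes, was at 5.27, 5.44 and 5.56 in the knockdown and at 6.05, 6.39 and 6.52 in the control. Every control value was higher, and the gene fell by 0.90 (SE 0.14) on the log2 scale (adjusted p 0.00898 by limma). Without control replicate 2 the adjusted p was 0.0517, and with the RNA integrity number in the model 0.0501. Tnr (tenascin R), which ties lecticans together in perineuronal nets, had a difference of -0.29 (interval -0.72 to 0.14), its control values running from 7.99 to 8.71. Without control replicate 3, the lowest control, the difference of Tnr was -0.52 with an adjusted p of 0.0492.

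Hyaluronan synthases, which extrude the chain through the cell membrane, were dim and did not change detectably, while the hyaluronan receptor Cd44 was lower. Has1, Has2 and Has3 had mean levels of 3.34, 3.98 and 4.83 over the 6 arrays, all below the median of 5.06 over all genes, and their intervals together ran from -0.45 to 0.50. At such levels RMA can understate a fold. Cd44 stood at 5.06, 4.85 and 4.56 in the knockdown and at 5.75, 5.36 and 5.33 in the control. The groups did not overlap, and Cd44 fell by 0.66 (SE 0.16) with an adjusted p of 0.0497 by limma, just inside the threshold. It was outside without every array in turn except knockdown replicate 1 (0.0635 to 0.15), with quantile normalisation (0.0657), median centring (0.0719), an intensity trend (0.0525), robust fitting (0.0508), RNA integrity as a covariate (0.124), the mean of probe sets (0.0501) and all probe sets adjusted together (0.0526).

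Ptprz1, a receptor phosphatase with chondroitin sulfate chains that binds pleiotrophin and midkine, lay just outside the threshold. Its values were 8.56, 8.73 and 8.92 in the knockdown and 9.06, 9.38 and 9.45 in the control. The groups were apart, with a log2 difference of -0.56 (SE 0.14) and an adjusted p of 0.0519 by limma. It passed with the replicate number as a block (0.0137), without control replicate 1 (0.0279), with median centring (0.0475), the dim-gene filters (0.0331 and 0.0335), an intensity trend (0.0367) and array weights (0.019). Cspg5 (neuroglycan C), a transmembrane proteoglycan of neurons, had a difference of -0.08 with a narrow interval from -0.30 to 0.13.

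Tnc, Ncan, Gpc6, Cd44 and Ptprz1 are also known from astrocytes and neural progenitors, so the markers of those cells were set beside them. Of 10 astrocyte markers none passed by limma, 0 had an unadjusted p under 0.05, 4 lay above 0 and 6 below, and the median log2 difference was -0.06. Their summed log2 level was 11.83 to 12.29 in the knockdown and 11.92 to 12.33 in the control, and Gjb6 and S100b were below the median level of all genes. Of 5 progenitor markers none passed by limma and 0 had an unadjusted p under 0.05, with summed levels of 11.20 to 11.69 and 11.23 to 12.21 and Pax6 below the median level. Among 6 markers of oligodendrocyte precursors Pdgfra rose by 2.80 (adjusted p 0.0104 by limma) and 5 did not pass. The summed levels of the 6 were 9.39 to 10.62 and 9.51 to 9.85, with Sox10 and Gpr17 below the median level. The part of these cells in the differences was not tested.

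The polymerases of heparan sulfate did not pass the test. Ext1 and Ext2, which together polymerise the chain, had differences of -0.19 (interval -0.42 to 0.05) and -0.22 (-0.44 to 0.01), and Extl3, which starts it, had 0.26 (-0.05 to 0.57). Of these 3, 0 passed by limma and 0 had an unadjusted p under 0.05. A halving or doubling of any of them lies outside these intervals.

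Hs6st1, which puts sulfate on the sixth carbon of glucosamine in heparan sulfate, was the enzyme that rose. It stood at 8.85, 9.10 and 8.80 in the knockdown and at 8.31, 8.41 and 8.15 in the control. Every knockdown array was above every control array, by 0.63 (SE 0.12) between the means, which is 1.54-fold (adjusted p 0.0191 by limma). The call was lost without knockdown replicate 2 (0.0749), control replicate 2 (0.0523) or control replicate 3 (0.052) and with the RNA integrity number in the model (0.0926). Hs2st1, which sulfates the uronic acid of the same chain, was at 8.80, 8.59 and 8.65 against 8.24, 8.40 and 8.13. It too was higher in every knockdown array, but its difference of 0.42 (interval 0.16 to 0.68) had an adjusted p of 0.0612 by limma. It passed with the dim-gene filters (0.0332 and 0.0336) and with an intensity trend (0.045). Hs6st2, a relative of Hs6st1, had -0.14 (-0.46 to 0.19).

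The enzymes Ndst2, Ndst3 and Ndst4, which exchange acetyl for sulfate groups on the chain, did not pass. Ndst2 had a difference of 0.26 (interval -0.09 to 0.61) and Ndst4, which is dim at a mean level of 3.53, one of -0.37 (-0.66 to -0.07), which passed with array weights alone of the alternatives (0.0391). Ndst3 was at 5.14, 6.55 and 6.55 in the knockdown and at 6.07, 6.52 and 7.08 in the control, and replicate 1 was the lowest of both groups. Hs3st1, which adds the rare sulfate that antithrombin recognises, showed the same feature more clearly, at 4.77, 6.20 and 6.05 against 4.96, 6.75 and 6.67. In these genes the replicates differed by more than the groups did, and the interval of Hs3st1 ran from -1.66 to 0.76. Markers of inhibitory neurons, 7 genes of which Lhx6 fell and 6 did not pass, had summed log2 levels of 11.61, 12.68 and 12.46 in the knockdown and of 12.28, 13.29 and 13.54 in the control, again lowest in replicate 1 of both groups, with Pvalb below the median level of all genes. Their part in the values of Ndst3 and Hs3st1 was not tested.

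The sulfatases Sulf1 and Sulf2 remove sulfate outside the cell from the position that Hs6st enzymes fill. Sulf1 was at 5.58, 5.86 and 5.15 in the knockdown and at 5.61, 6.67 and 6.19 in the control, with overlap and a difference of -0.63 (interval -1.26 to 0.00). Sulf2 was bright and even, at 10.24 ± 0.07 and 10.26 ± 0.04 (SD, n = 3), and its difference of -0.02, or 0.0033 with median centring, had an interval from -0.23 to 0.19.

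Chsy1, which builds the chondroitin backbone, was the enzyme that fell. It was at 8.0, 7.80 and 7.77 in the knockdown and at 8.73, 8.63 and 8.43 in the control. The highest knockdown value was well below the lowest control value, and Chsy1 fell by 0.74 (SE 0.12) on the log2 scale (adjusted p 0.00884 by limma). Without control replicate 2 the adjusted p was 0.0501, and with the mean of its probe sets 0.0522. The dimmer set had a difference of -0.51, which did not pass when all probe sets were adjusted together (0.238). Chsy3, a second chondroitin synthase, had 0.27 (interval -0.18 to 0.71), while its other probe set, of similar brightness, had -0.14. Chst11, which sulfates the fourth carbon of galactosamine in chondroitin, had -0.26 (-0.69 to 0.18), and Chst2, a sulfotransferase of keratan sulfate, had -0.05 (-0.35 to 0.24).

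**Figure D4:**
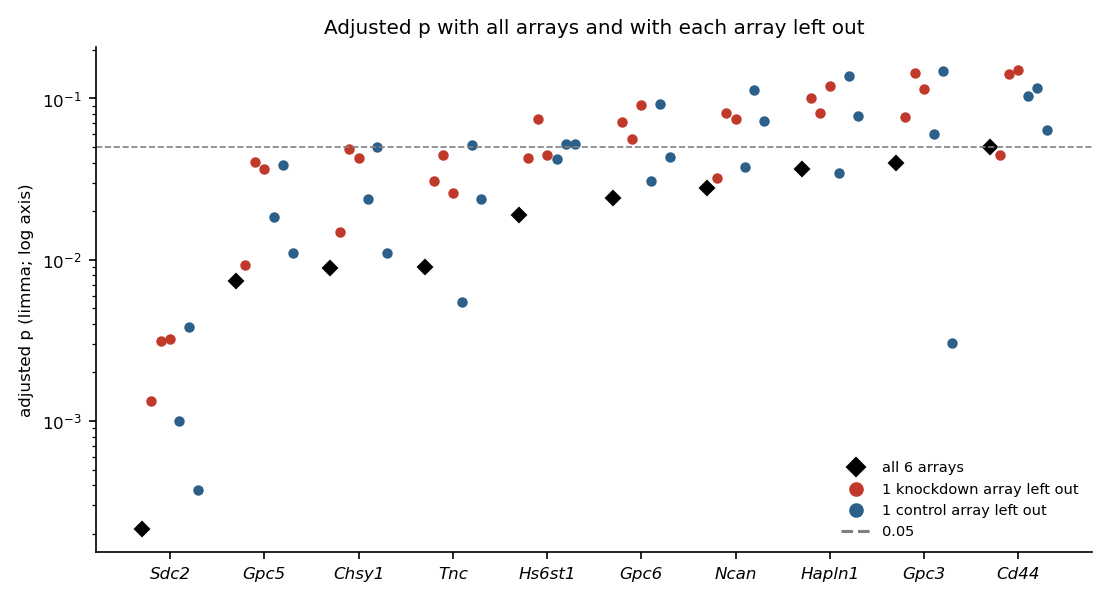
Adjusted p by limma (vertical axis, log scale) of the 10 genes that passed, with all 6 arrays (black diamonds), without 1 knockdown array (red) and without 1 control array (blue). The dashed line is the threshold of 0.05. Sdc2 and Gpc5 stay below it in every case, and Cd44 is below it in 1 of 6.

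Other genes of the same pathway were then counted, from a list of 97 of which 92 had a probe set of their own. Of these 3 rose, 6 fell and 83 did not pass, a share of 9.78% where 7.80% of all genes tested passed, and the median log2 difference was -0.02. With the replicate number as a block 6 rose and 11 fell, where 6.05% and 5.64% of all genes tested did. In number this wider list was thus near the background of all genes tested without the block. Only 19 of the 92 lay below the median level of all genes. Of the 92, 3.26% rose and 6.52% fell, against 7.84% and 6.72% of the genes at or above that level.

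Among the 16 genes that supply sugars and build the linker, on which both heparan and chondroitin sulfate chains start, B3gat3 fell and 15 did not pass. B3gat3, which adds the last sugar of the linker, was at 7.45, 7.43 and 7.41 in the knockdown and at 8.01, 8.0 and 8.04 in the control. Replicates of a group differed by at most 0.04, and the gene fell by 0.59 (SE 0.09) with an adjusted p of 0.00674 by limma, at most 0.0375 with any array left out. Glce, the epimerase that turns glucuronic into iduronic acid in heparan sulfate, fell from 8.46 ± 0.09 to 8.02 ± 0.07 (SD, n = 3; adjusted p 0.0355 by limma). Its call was lost without each array in turn (0.0663 to 0.132), with the RNA integrity number in the model (0.153) and with the mean of probe sets (0.0554). The other 10 measured heparan sulfate enzymes did not pass. Among these, Extl1, at 0.51 (adjusted p 0.2 by limma), passed with the replicate number as a block (0.0448). Hpse, at -0.5 (0.128), passed with that block (0.036) and without control replicate 1 (0.0446).

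Chpf, which works with Chsy1 in chondroitin polymerisation, stood at 8.19, 7.94 and 7.92 in the knockdown and at 8.58, 8.56 and 8.58 in the control. The control values were nearly identical and all above the knockdown values, and Chpf fell by 0.56 (SE 0.11; adjusted p 0.0183 by limma). The call was lost without knockdown replicate 2 or 3 or control replicate 2 (0.0763 to 0.0824) and with the RNA integrity number in the model (0.0924). Ust, which sulfates the uronic acid of chondroitin and dermatan sulfate, was at 7.14, 6.95 and 7.07 against 8.15, 7.83 and 7.37. Its groups were apart, and its difference of -0.73 had an adjusted p of 0.0525 by limma, or 0.0273 with the replicate number as a block. It passed as well without control replicate 3 (0.0104), with quantile normalisation (0.0455), the dim-gene filters (0.0369 and 0.0373), an intensity trend (0.0449) and array weights (0.0121). Of the 11 measured enzymes of this kind, Chpf was the only one to pass.

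Ptn and Mdk, ligands of the proteoglycans, fell. Ptn (pleiotrophin), a heparin-binding growth factor that signals through Sdc3 and Ptprz1, was at 9.46, 9.61 and 9.47 in the knockdown and at 9.93, 10.20 and 9.87 in the control. Mdk (midkine), its only close relative, was at 6.46, 6.12 and 6.61 against 6.87, 7.02 and 7.28. For both ligands every knockdown value lay below every control value. Ptn fell by 0.49 (SE 0.12; adjusted p 0.0444 by limma) and Mdk by 0.66 (SE 0.16; 0.0431). The call of Ptn was lost without every array in turn except control replicate 3 (0.0674 to 0.15), with median centring (0.0571) and with the RNA integrity number in the model (0.11), and that of Mdk without every array in turn except control replicate 1 (0.0599 to 0.134) and with that covariate (0.155).

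Itgb1, the beta subunit of many matrix receptors, rose from 9.26 ± 0.24 to 9.86 ± 0.12 (SD, n = 3; adjusted p 0.0366 by limma). The other 20 of 23 ligands, receptors and adaptors did not pass, among them the hyaluronan receptor Lyve1, whose difference of -0.82 had an adjusted p of 0.0577 by limma. This became 0.0344 with the replicate block, 0.0187 without control replicate 3, 0.0226 with array weights and 0.0149 with the RNA integrity number in the model. With the dim-gene filters it was 0.0414 and 0.0418. The first filter asked for 3 arrays at or above the median level of all genes. Lyve1 met it only through its control values (5.97, 5.44 and 5.07, against 4.59, 4.86 and 4.58 in the knockdown). Those values also raise its mean level of 5.085, on which the second filter acts, so the filters add no separate support. Among 15 other proteoglycans App, the amyloid precursor protein, which carries chondroitin sulfate in some isoforms, was at 11.32, 10.81 and 10.67 in the knockdown and at 12.66, 12.50 and 12.42 in the control. It fell 3.02-fold (adjusted p 0.00181 by limma, at most 0.0152 with any array left out), the largest difference of this list. Spock2, a testican of the brain matrix, rose from 10.24 ± 0.09 to 10.66 ± 0.09 (SD, n = 3; adjusted p 0.0429 by limma), and 13 did not pass. Among the 13, Nrp1, at 0.67 (adjusted p 0.168 by limma), passed with the replicate block (0.0229).

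Of 16 matrix-degrading genes Hyal3, of the hyaluronidase family, rose from 5.40 ± 0.18 to 5.92 ± 0.14 (SD, n = 3; adjusted p 0.0481 by limma) and 15 did not pass. Among the latter were Adamts15, a protease that cuts lecticans, at -0.89 (adjusted p 0.0739 by limma), and Mmp14, a membrane-bound metalloprotease, at -0.48 (0.0982), whose p-values became 0.0344 and 0.0375 with the replicate block. Both passed as well without control replicate 1 (0.00923 and 0.0221) and with array weights (0.0244 and 0.0299). Cemip, at 0.56 (adjusted p 0.195 by limma), also passed with the replicate block. The call of Itgb1 held with a single array left out only without control replicate 3 (0.0536 to 0.144 without the others), as did that of Hyal3 (0.0644 to 0.178), and that of Spock2 was lost without any (0.0605 to 0.164). With RNA integrity as a covariate their adjusted p-values were 0.0792, 0.123 and 0.129. Those of Itgb1 and Spock2 were 0.0546 and 0.0538 with quantile normalisation, and those of Hyal3 0.0564 with an intensity trend and 0.0509 with all probe sets adjusted together.

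**Figure D5:**
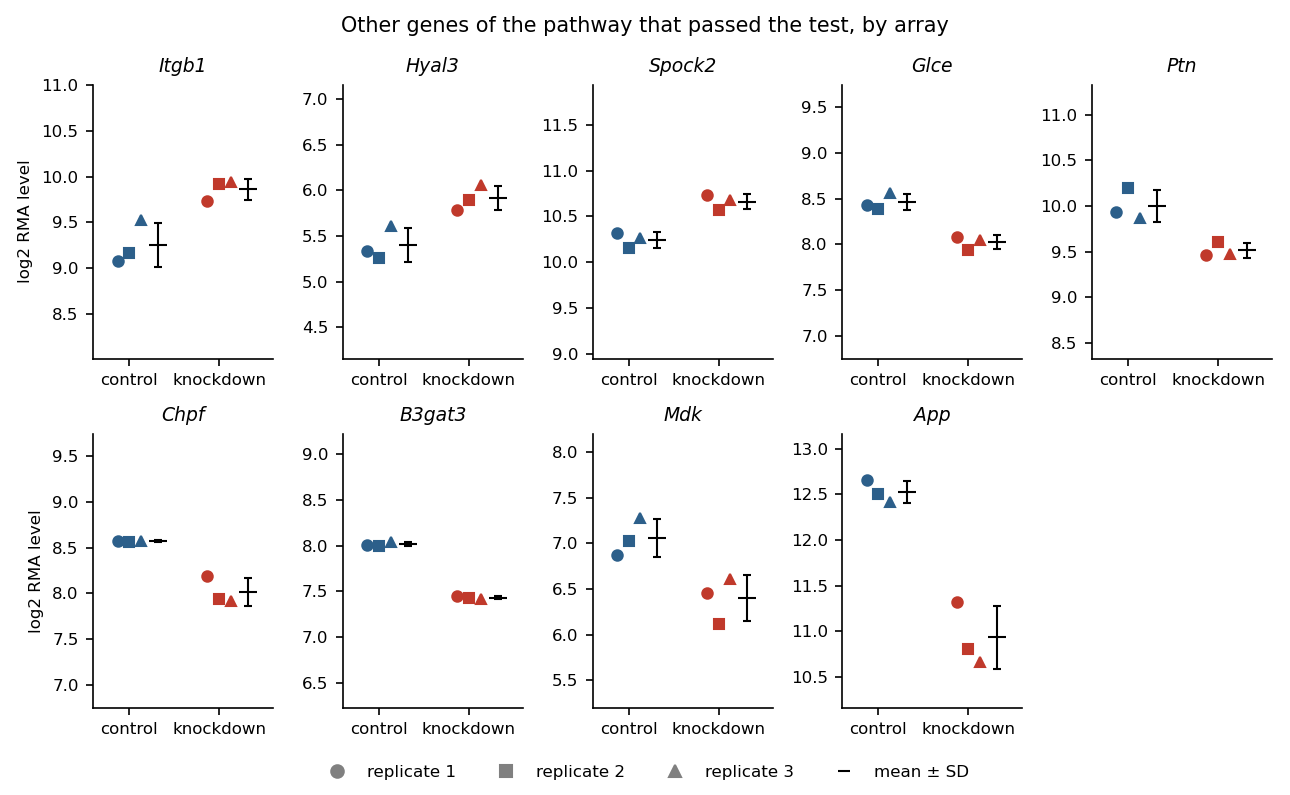
Log2 RMA level (vertical axis, each panel with a range of its own) of the 9 other pathway genes that passed, in the 3 control arrays (blue) and the 3 knockdown arrays (red). Marker shapes give the replicate number and black bars the mean ± SD, n = 3. App shows the widest gap and B3gat3 the tightest replicates.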

How the data were processed

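Total RNA of 3 knockdown and 3 control samples was read on 1 Affymetrix array each. The authors deposited 1 log2 level for each probe set. Per the submitters' processing notes, these were computed by RMA, and the software was Affymetrix Expression Console 1.2.1.20. Genome build and array annotation are not given in the sources used here, and detection calls and probe intensities were not used. The table holds 41345 probe sets, of which a platform annotation gives 23521 a single gene symbol, 1814 several and 16010 none. The 42 measured genes matched RefSeq (GRCm38.p6) by Entrez number, and that table served for names, neighbours and upstream sequence.

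Groups come from the sample titles. Knockdown was compared with control by limma 3.58.1 (lmFit and eBayes, R 4.3.3) with Benjamini-Hochberg adjustment over all 22180 genes and a threshold of 0.05. The procedure was tested on simulated data. Intervals are 95% limma intervals, unadjusted. All genes of the 42 and of the wider list that passed are named, with up to 2 others per role by smallest p and further ones by role, chosen after their values were seen. The genes and lists were chosen with earlier results of these data known, so no test of a list was made.

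Deviations from the group means correlated at 0.43, 0.12 and 0.37 for same-numbered samples and at -0.38 to 0.06 for others. All 3 exceeded 0.1, so by that bound the numbers count as pairing the samples, from the data and not the labels. The reported fit has no block, as the labels name no litter, animal or day that same-numbered samples share. Its p-values and intervals therefore take no account of this pairing. The block was run as an alternative and is given beside results it changes. Alternatives were this block, leaving out each array, other scalings, dim-gene filters, variance models, the RNA integrity number in the model, other probe set rules and thresholds. Figures were drawn with matplotlib 3.10.9.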

Additional observations from a re-analysis of the deposited data

How the results depend on the processing

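Of 1118 recomputed values of 67 results without a count, 967 kept their direction and, where tested, their side of the threshold. Most of the 67 are genes that did not pass with the reported fit, so this number says little of the calls. Of 17 alternatives Sdc2 and Gpc5 passed in 17, Tnc and Chsy1 in 15, Hs6st1 in 13, Gpc3, Gpc6 and Ncan in 12, Hapln1 in 11 and Cd44 in 5. The wider genes that had passed did so in 9 to 17. The RNA integrity covariate, for which the labels give values from 8.8 to 9.3, left 1 gene higher and 3 lower of the 42 (Sdc2; Chsy1, Gpc3 and Gpc5), a threshold of 0.01 left 1 and 3, and leaving out 1 array left 1 to 3 and 1 to 6, fewest without control replicate 2 (Sdc2 and Gpc5). Of the wider list, 6 rose and 11 fell with the replicate block, 12 fell with array weights, 10 fell at a threshold of 0.1, and 1 rose with quantile normalisation. At 0.01 by limma 0 rose and 2 fell (12 and 16 at an unadjusted p under 0.05), and with RNA integrity 0 rose and 3 fell (9 and 11 unadjusted). With 1 array left out 0 to 2 rose and 2 to 7 fell (8 to 11 and 13 to 17 unadjusted). All genes called numbered 2703 with array weights, 1753 with quantile normalisation, 758 with RNA integrity, 644 at 0.01, 2592 at 0.1 and 689 to 1487 without 1 array. Of all 22180 genes tested, 4637 had an unadjusted p under 0.05 by limma with the reported fit. That number is not given for the other settings. With the replicate block 4 and 9 of the 42 rose and fell (6.05% and 5.64% of all genes tested did), Acan, Ptprz1 and Sdc4 being added to the 10, and no call among the 42 was lost. Differences near 0 that did not pass changed sign or came to 0 for 6 genes. With median centring Has3 was 0.01 and Sulf2 0.0033, with quantile normalisation Has3 was 0, with array weights Has3 was 0.011, and with RNA integrity Sdc1 was 0.063 and Chst2 0.057. Without 1 array the ranges were -0.23 to 0.097 for Sdc1, -0.22 to 0.077 for Gpc1, -0.35 to 0.11 for Gpc2, -0.12 to 0.10 for Has3, -0.058 to 0.0033 for Sulf2 and -0.11 to 0.057 for Chst2. Where a setting uses fewer arrays it has less power, and other causes were not tested. Weak signals are pulled to a floor by RMA, which limits what can be said of the 7 genes below the median level.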
